A study of Cavia porcellus with 72 samples.

Results

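The genes described here encode the laminins, the nidogens and perlecan, fibronectin and the tenascins C and R, the integrins, and the matrix proteases of the MMP and ADAMTS families with their TIMP inhibitors. They were chosen by symbol, as every gene whose name begins with a laminin, integrin, ADAMTS, MMP or TIMP stem or is FN1, TNC, TNR, HSPG2, NID1 or NID2. The rule found 77 genes among the 11927 genes in the count tables. They comprised 5 laminin alpha, 3 laminin beta and 3 laminin gamma chains, 3 nidogen or perlecan genes, 3 fibronectin or tenascin genes, 16 integrin alpha and 7 integrin beta subunits, 9 MMPs, 17 ADAMTS proteases, 5 ADAMTS-like (ADAMTSL) genes and 4 TIMPs. The other 2 genes, ITGB1BP1 and ITGBL1, match the integrin stem but encode an adaptor and a secreted integrin-like protein. Of the 77, 75 were in the tables of all 3 generations, LAMB2 was not in the F2 table and ADAMTS13 was not in the F1 table. A filter on low counts left 74 members for testing in F1, 74 in F2 and 75 in F3.

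Laminins are trimers of an alpha, a beta and a gamma chain that form the sheet of the basement membrane, the thin matrix around brain vessels and under the meninges. Nidogens and perlecan tie that sheet to the collagen network, and integrins, dimers of an alpha and a beta subunit, hold cells to laminin, collagen, fibronectin and latent TGF-beta. MMP and ADAMTS enzymes cut these proteins, and TIMPs block the enzymes. In the hippocampus, matrix of this kind surrounds vessels and, as nets built with tenascin R, certain neurons.

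RNA was sequenced from the hippocampus of female Dunkin-Hartley guinea pigs at postnatal day 40. F1 animals were born to mothers injected in pregnancy with betamethasone, a synthetic glucocorticoid (sGC, labelled Beta), or with saline (control). F2 and F3 animals were reached through the paternal line, by mating F1 and then F2 males with females that had taken no part in the experiment, so that the exposure of an F2 or F3 animal lay with its ancestor and the mothers of F2 and F3 were untreated in both lineages. There were 6 control and 5 sGC libraries in F1, 6 and 6 in F2, and 6 and 7 in F3, 1 library per animal. Library totals ran from 13507449 to 19767033 reads counted to genes. All 7 markers of hippocampal excitatory neurons in the tables were detected in each of the 36 libraries, with PROX1, the dentate granule cell factor, at 85.9 to 142.6 counts per 1000000 reads (CPM) and WFS1, a CA1 marker, at 53.5 to 88.8. Expression is given as CPM after TMM scaling, which does not allow for transcript length, so levels are compared between animals and not between genes. In bulk tissue, fewer cells of a type and less RNA per cell cannot be told apart.

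One library must be set apart before any result. The counts of F3 sGC replicate 5 matched the average of F3 sGC replicates 1, 2, 3, 4 and 7 more closely than sampling would let a separate library match: over 10464 genes the chi-square per gene was 0.296, where sampling alone gives about 1, and no other library came below 4.32 against an average of its group. Among members, 64 of 65 lay within 10% of that average. It is kept in the tests, the results that its removal changed are also given without it, and the F3 sGC ranges and medians are over the other 6 libraries. F1 sGC replicate 4 was the library farthest from its own group, with a root mean square deviation of 0.223 (log2) against a median of 0.161 among the 31 libraries numbered below 32. Libraries numbered 32 to 36 in the titles were all sGC, 2 in F1, 1 in F2 and 2 in F3. That numbering and treatment cannot be told apart, so fits without these 5 libraries are given where they change a call.

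In F1, the offspring exposed in utero, ITGB8, a partner of ITGAV that binds and activates latent TGF-beta, rose in sGC animals by 0.30 ± 0.040 (log2 fold change ± SE, adjusted p = 0.00434). It was the single member called at an adjusted p below 0.05 by the edgeR quasi-likelihood test, 1 of 74, where 2.08% of all genes were called. At an unadjusted p below 0.05, 10 members were higher and 7 lower, while 10.5% of all genes were higher and 9.06% lower. Counting direction alone, 48 members were higher and 26 lower, with a median log2 fold change of 0.04, against 48.3% higher and a median of -0.005 over all genes, and without libraries 32 and 35 the members' median turned to -0.00593. The likelihood ratio test called 4 members (ITGB8, LAMA5, ITGA2 and TNR) and DESeq2 called 3. Over all genes these tests called 5.26% and 5.78%.

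In F2, no member was called by edgeR, the likelihood ratio test or DESeq2. Over all genes 0% were called by edgeR. At an unadjusted p below 0.05, 4 members were higher (ITGA6, TNC, TIMP3 and ITGB5) and 1 lower (ITGA10), against 3.74% and 2.90% of all genes. The median log2 fold change of the 74 members was 0.02.

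In F3, ITGB5, which pairs with ITGAV as a receptor for vitronectin, rose by 0.15 ± 0.039 (adjusted p = 0.0344), the single call among 75 members, where 5.04% of all genes were called. Without F3 sGC replicate 5 it missed the threshold (adjusted p = 0.0671), and no member was called, with 16 at an unadjusted p below 0.05, while over all genes 288 (2.54%) were called. The log2 fold changes of the 16 members at an unadjusted p below 0.05 in F3 moved by at most 0.0167 without it, with adjusted p of 0.0671 to 0.295. In direction, 54 members were higher and 21 lower with a median of 0.10, against 51.7% higher and a median of 0.005 over all genes, and without replicate 5 the split was 56 to 19 with a median of 0.11. Without libraries 34 and 36 the median was 0.05. Unadjusted, 13 members were higher and 3 lower, against 10.3% and 10.8% of all genes. The likelihood ratio test called 3 members (ITGB5, LAMA5 and ITGAV) and DESeq2 called 2. Over all genes these tests called 6.94% and 8.25%.

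**Figure D1:**
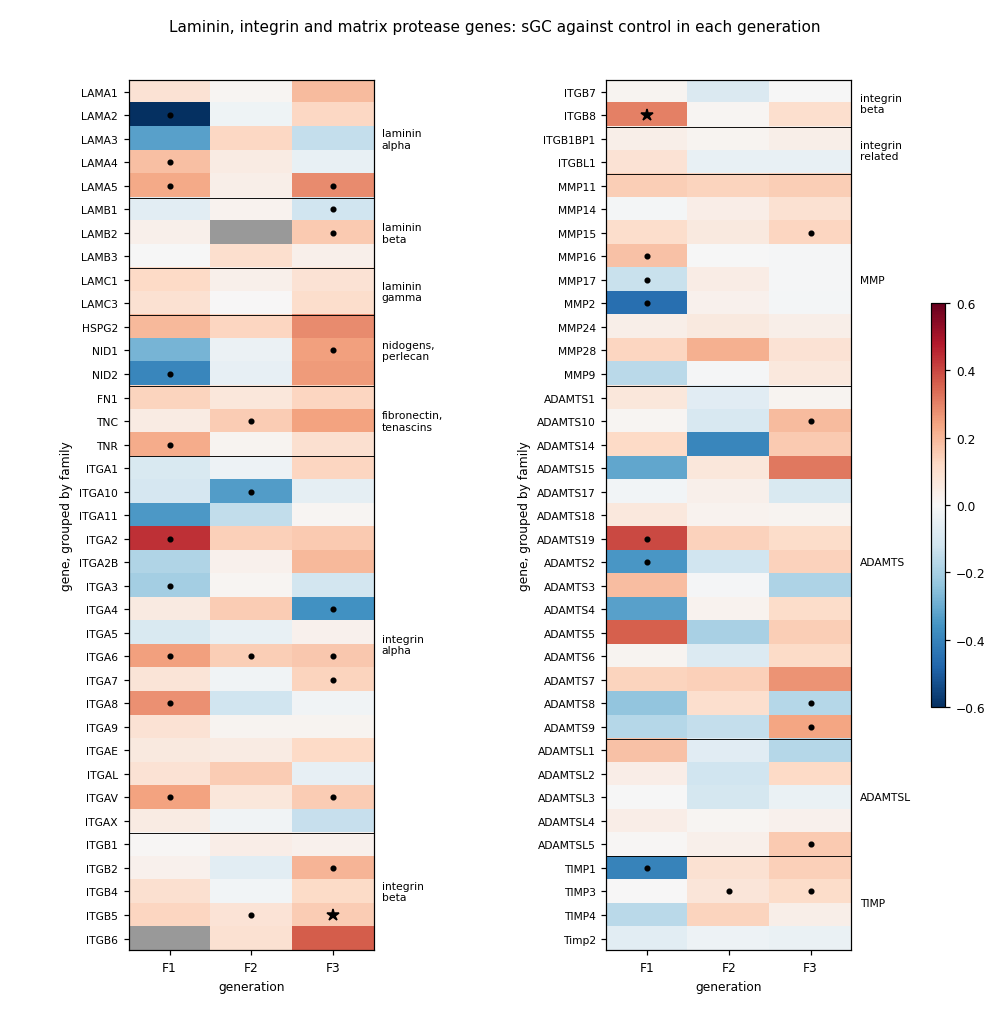
Log2 fold change of sGC over control (colour, red higher and blue lower, scale limited to 0.6) for the tested members reported here in F1, F2 and F3, genes grouped by family. Stars mark an adjusted p below 0.05 (ITGB8 in F1 and ITGB5 in F3), dots an unadjusted p below 0.05, and grey squares members not tested in that generation. LAMA2, at -0.63 in F1, lies past the end of the scale.

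When the 3 sGC minus control differences were averaged in 1 fit over all 36 libraries, 6 of 75 members were called: ITGB8, ITGA6, ITGAV, LAMA5 and ITGB5 were higher and ITGA10 was lower. Over all genes 5.07% were called higher and 3.46% lower. This mean uses the same control animals as the comparisons within generations and is no separate evidence for them. Without F3 sGC replicate 5, 5 of the 6 were still called and ITGB5 was not (adjusted p = 0.0548). In that fit 832 genes (7.3%) were called over all genes. Without libraries 32 to 36, 0 members were called by edgeR, all 6 still having an unadjusted p below 0.05 and each keeping its direction with an adjusted p between 0.0853 and 0.330, and the calls over all genes fell from 971 to 54.

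**Figure D2:**
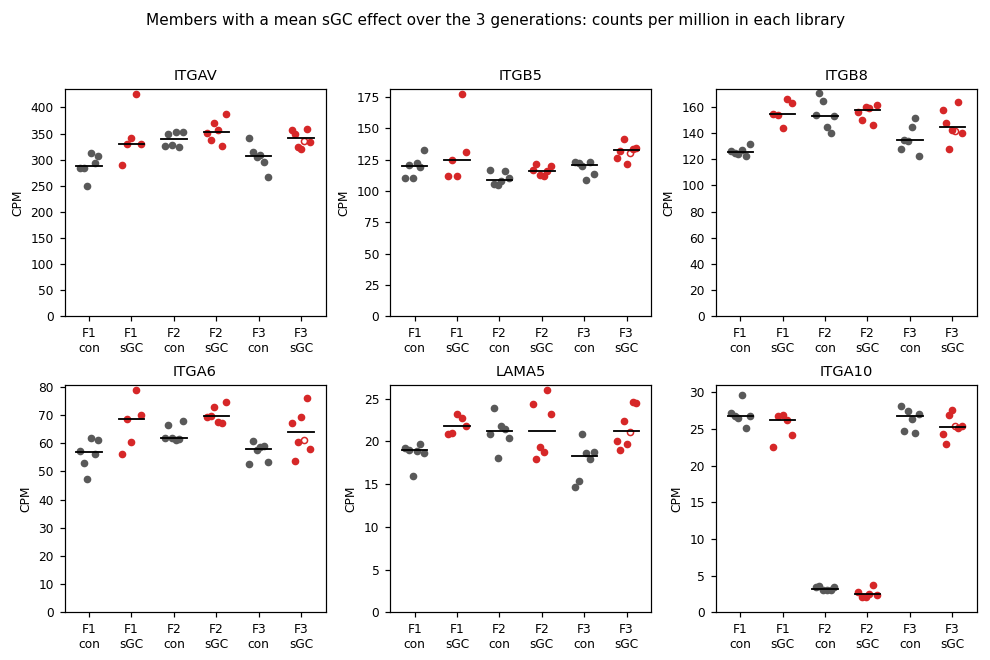
CPM in each library for the 6 members with a mean sGC effect over the generations. Grey points are control, red points sGC and the open red point F3 sGC replicate 5, and bars are medians without that library. ITGB8 separates the groups in F1 alone, ITGA6 and ITGAV overlap in each generation, and ITGA10 in F2 lies far below its level in F1 and F3.

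Among the laminin chains, LAMA5, the alpha chain of mature vascular basement membrane, had an unadjusted p below 0.05 and a higher value in sGC animals in both F1 and F3. Its F1 controls ran from 15.99 to 19.7 CPM with a median of 18.9, and the 5 sGC animals stood at 20.8, 21.01, 23.2, 22.8 and 21.7 CPM. All 5 were above every control, and the log2 fold change was 0.23 ± 0.061 (adjusted p = 0.0691). In F3, controls ran from 14.7 to 20.9 CPM (median 18.3) and sGC from 19.03 to 24.5 (median 21.2), which overlap, with a log2 fold change of 0.29 ± 0.084 (adjusted p = 0.0585, or 0.0981 without replicate 5). In F2 the medians were both 21.2 CPM. The mean effect was 0.19 ± 0.050 (adjusted p = 0.0197). LAMA5 was not among the members that moved with the summed markers of astrocytes, endothelium, microglia, oligodendrocytes or meningeal fibroblasts across libraries (r between -0.06 and 0.27).

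LAMA2, the alpha chain of the laminin made by mural cells, astrocytes and fibroblasts, had the lowest F1 value of the tested members. Controls ran from 31.3 to 53.1 CPM with a median of 44.1, and the sGC animals stood at 41.1, 33.3, 28.2, 17.4 and 15.8 CPM. The 2 lowest animals were replicates 4 and 5, the libraries numbered 35 and 32, and 3 of 5 lay below all controls. The log2 fold change was -0.63 ± 0.218 (adjusted p = 0.133), and without libraries 32 and 35 it was -0.31 (adjusted p = 0.335). In F2 and F3 the LAMA2 values were -0.03 and 0.12, and the groups overlapped in both.

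The other alpha chains differed less. LAMA4, a chain of endothelial laminin, was at 36.7 to 42.1 CPM in F1 controls and at 37.9, 47.5, 42.0, 46.9 and 51.2 in sGC animals (log2 fold change 0.18 ± 0.067, adjusted p = 0.166), with values of 0.05 in F2 and -0.05 in F3. LAMA1 and LAMA3 had no unadjusted p below 0.05 in any generation. LAMB1, the common beta chain, was at 114 to 136 CPM in F3 controls and 107 to 124 in F3 sGC, a log2 fold change of -0.12 ± 0.041 (adjusted p = 0.109). LAMB2, the beta chain of mature vessels and synapses, was at 54.3 to 71.4 and 62.5 to 72.8 CPM, a log2 fold change of 0.16 ± 0.055 (adjusted p = 0.110). The F3 groups overlapped for both beta chains, and both values missed the threshold. The gamma chains LAMC1 and LAMC3 had no unadjusted p below 0.05, with LAMC1, the common gamma chain, at log2 values of 0.12, 0.03 and 0.09 in F1, F2 and F3.

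The nidogens took opposite signs in F1 and F3. NID1 was at 18.3 to 30.8 CPM in F1 controls (median 24.1) and at 18.2, 16.2, 16.9, 28.4 and 22.3 in F1 sGC animals. The 3 lowest were below all controls, and replicates 4 and 5 were within the control range, giving a log2 fold change of -0.28 ± 0.150 (adjusted p = 0.322). In F3, NID1 ran from 14.4 to 24.3 CPM in controls (median 21.5) and from 21.3 to 32.3 in sGC (median 23.7), a log2 fold change of 0.25 ± 0.113 (adjusted p = 0.223). NID2, the second nidogen, had log2 fold changes of -0.39 ± 0.178 in F1 (adjusted p = 0.247), -0.05 in F2 and 0.25 in F3, and its groups overlapped in each. HSPG2, perlecan, was higher by 0.19 in F1, 0.13 in F2 and 0.29 in F3, with a mean effect of 0.21 ± 0.088 (adjusted p = 0.138). Its F1 value became -0.02 without libraries 32 and 35, where the 2 sGC animals at 28.4 and 31.8 CPM were those libraries.

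Among the adhesive glycoproteins, TNR, the tenascin of perineuronal nets, was at 190.5 to 213 CPM in F1 controls (median 203) and at 219, 237, 229, 216 and 277 in F1 sGC animals. All 5 were above every control, with a log2 fold change of 0.22 ± 0.061 (adjusted p = 0.0747). The F2 and F3 values were 0.02 and 0.10 with overlapping groups. TNC, the tenascin made by astrocytes, ran from 69.9 to 89.0 CPM in F2 controls (median 80.7) and from 82.1 to 93.9 in F2 sGC (median 89.4), a log2 fold change of 0.15 ± 0.059 (adjusted p = 0.711), with values of 0.05 in F1 and 0.24 in F3. FN1, fibronectin, had values of 0.14, 0.07 and 0.13. All 3 genes thus had positive values in each generation, some of them small. The F2 value of TNR ran from -0.04 to 0.05 over the 12 fits that left out 1 library. None of the 3 genes was past the threshold in the edgeR quasi-likelihood test, with 1 at an unadjusted p below 0.05 in F1, 1 in F2 and 0 in F3. The likelihood ratio test and DESeq2 both called TNR in F1 and none of the 3 in F2 or F3.

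ITGB8 carried the clearest difference of the integrins. F1 controls ran from 122 to 131 CPM with a median of 126, and the 5 sGC animals stood at 154, 154, 143.5, 165.8 and 163. The lowest sGC animal was thus above the highest control, a log2 fold change of 0.30 (95% interval 0.22 to 0.38), and the call held in each of 19 alternative fits, with adjusted p up to 0.0310. In F2, controls ran from 140 to 170.8 CPM (median 153) and sGC from 146.4 to 161.7 (median 157), a log2 fold change of 0.01 (adjusted p = 0.978). In F3, controls ran from 122.8 to 151 (median 135) and sGC from 127.5 to 164 (median 145), a log2 fold change of 0.10 (adjusted p = 0.320). The mean effect was 0.14 ± 0.030 (adjusted p = 0.00564).

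ITGAV, the shared alpha partner of ITGB8 and ITGB5, was at 249 to 313 CPM in F1 controls (median 289) and at 289, 330, 342, 426 and 329 in F1 sGC animals. Of the 5, 4 were above all controls, and the highest was replicate 4, with a log2 fold change of 0.24 ± 0.084 (adjusted p = 0.136). In F3, controls ran from 267 to 342 CPM (median 308) and sGC from 320 to 358 (median 342), a log2 fold change of 0.15 ± 0.047 (adjusted p = 0.0707, or 0.114 without replicate 5). With an F2 value of 0.07, the mean effect was 0.16 ± 0.036 (adjusted p = 0.00803).

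ITGB5 was at 109 to 123.2 CPM in F3 controls (median 121) and 122 to 141 in F3 sGC (median 133), and 5 of 6 sGC animals were above all controls. The F3 call was kept in 10 of 21 alternative fits. Leaving out any of F3 control replicates 2, 3, 4 and 6 or F3 sGC replicates 2, 3, 5 and 7 ended it, with adjusted p of at most 0.0731. In F1, ITGB5 stood at 112, 124.7, 112, 177 and 131 CPM in sGC animals against 110 to 133 in controls, so that 1 animal, replicate 4, was far above the rest. The F1 value was 0.13, or -0.04 without libraries 32 and 35, and the mean effect of 0.12 ± 0.039 (adjusted p = 0.0413) was 0.08 without F1 sGC replicate 4 and 0.06 without libraries 32 to 36, called in 21 of 43 alternatives.

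ITGA6, a laminin receptor subunit that pairs with ITGB1 or ITGB4, was the member with an unadjusted p below 0.05 in each generation. F1 controls ran from 47.2 to 61.8 CPM (median 56.7), and sGC animals stood at 56.3, 68.8, 60.5, 79.0 and 70.0, a log2 fold change of 0.25 ± 0.086 (adjusted p = 0.136). F2 controls ran from 61.0 to 67.8 CPM (median 61.8) and sGC from 67.1 to 74.7 (median 69.5), a log2 fold change of 0.15 ± 0.037 (adjusted p = 0.507). F3 controls ran from 52.8 to 60.7 CPM (median 58.1) and sGC from 53.7 to 76.0 (median 63.8), a log2 fold change of 0.16 ± 0.067 (adjusted p = 0.180). The F2 groups met over a narrow range, where 4 of 6 sGC animals were above all controls, and the F1 and F3 groups overlapped more widely. The mean effect was 0.19 ± 0.041 (adjusted p = 0.00593).

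ITGA10, a collagen receptor subunit of cartilage, was lower in sGC animals. In F2, where its level was low, controls ran from 2.98 to 3.63 CPM (median 3.23) and sGC from 2.10 to 3.67 (median 2.45), 5 of 6 sGC animals being below all controls, a log2 fold change of -0.33 ± 0.136 (adjusted p = 0.711). The F1 and F3 values were -0.10 and -0.06 at medians between 25.3 and 26.8 CPM, with overlapping groups. The mean effect was -0.16 ± 0.046 (adjusted p = 0.0261), and leaving out F2 sGC replicate 2 moved it just past the threshold (adjusted p = 0.0504).

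Other integrins reached an unadjusted p below 0.05 in a single generation. ITGA2, a collagen receptor subunit, was at 2.51 to 3.39 CPM in F1 controls (median 2.92) and at 3.59, 3.72, 3.93, 4.47 and 4.596 in F1 sGC animals. All 5 were above every control, with a log2 fold change of 0.44 ± 0.122 (adjusted p = 0.0752). ITGA8 (0.27) and ITGA3 (-0.20) in F1, and ITGA4 (-0.36 ± 0.137, adjusted p = 0.136), ITGB2 (0.20 ± 0.073, adjusted p = 0.118) and ITGA7 (0.13 ± 0.049, adjusted p = 0.125) in F3 did not pass. ITGB2 is a leukocyte and microglial subunit, ITGA4 a subunit of lymphocytes and vessels, and ITGA7 a laminin receptor subunit. ITGB1, the beta subunit shared by most of the alpha subunits here, had log2 values of 0.01, 0.04 and 0.03, with 95% limits for F1 of -0.07 to 0.08.

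Of the proteases, none was called in any generation by the edgeR quasi-likelihood test, with 3 MMPs and 2 ADAMTS genes at an unadjusted p below 0.05 in F1, 0 in F2, and 1 MMP, 3 ADAMTS genes and 1 ADAMTSL gene in F3. DESeq2 and the likelihood ratio test also called none of them within any generation, while 1 fit over all 3 generations called MMP16 in F1 (log2 fold change 0.18, adjusted p = 0.0436). MMP2, gelatinase A, which cuts denatured collagen and basement membrane collagen, was at 10.45 to 21.2 CPM in F1 controls (median 15.1) and at 13.1, 11.7, 8.32, 14.5 and 8.92 in F1 sGC animals. The groups overlapped, 2 of 5 sGC animals lying below all controls, with a log2 fold change of -0.45 ± 0.172 (adjusted p = 0.174), while the F2 and F3 values were 0.03 and -0.01. MMP16, a membrane-bound MMP that activates MMP2, was at 47.4 to 56.7 CPM in F1 controls and at 51.7, 60.9, 59.1, 61.6 and 61.7 in F1 sGC, a log2 fold change of 0.18 ± 0.061 (adjusted p = 0.135), with 4 of 5 above all controls. MMP17, held to the membrane by a lipid anchor, was lower in F1 (-0.14 ± 0.055, adjusted p = 0.195). MMP15, another membrane-bound MMP, was higher in each generation (0.11, 0.06 and 0.13), with a mean effect of 0.10 ± 0.033 that just missed the threshold (adjusted p = 0.0512). MMP9, gelatinase B, was at about 1 to 2 CPM, with no unadjusted p below 0.05.

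In the ADAMTS family, ADAMTS10, an enzyme of fibrillin microfibrils, was at 49.6 to 66.1 CPM in F3 controls (median 62.2) and 55.4 to 77.1 in F3 sGC (median 70.5). Of 6 sGC animals, 5 were above all controls, and the log2 fold change was 0.19 ± 0.073 (adjusted p = 0.139). Without F3 sGC replicate 6, the lowest sGC animal, its value was 0.24 and it was called. ADAMTS9 had a value of 0.24 ± 0.0997 in F3 (adjusted p = 0.183), also with 5 of 6 above all controls, and ADAMTS8 a value of -0.17 ± 0.074 (adjusted p = 0.198). In F1, ADAMTS2, which trims procollagen, had a value of -0.35 ± 0.145 (adjusted p = 0.204) and ADAMTS19 a value of 0.40 ± 0.160 (adjusted p = 0.195) at about 2 CPM. ADAMTSL5, which lacks a protease domain, was at 13.8 to 16.4 CPM in F3 controls and 16.2 to 18.3 in F3 sGC, a log2 fold change of 0.16 ± 0.057 (adjusted p = 0.117). The groups met only at their edges, but the value missed the threshold. Over all 15 ADAMTS genes tested in F3, 12 were higher and 3 lower with a median of 0.12, against 9 and 6 with a median of 0.01 in F1. ADAMTS16 in all 3 generations, ADAMTS13 in F2 and F3, and the integrin ITGB6 in F1 had too few counts to be tested, from 1 to 15 reads per library.

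TIMP1, an inhibitor of most MMPs, was at 5.25 to 8.41 CPM in F1 controls (median 7.08) and at 5.28, 3.61, 5.06, 6.92 and 5.35 in F1 sGC animals, a log2 fold change of -0.40 ± 0.160 (adjusted p = 0.191). The groups overlapped, with 2 of 5 below all controls. TIMP3, the TIMP bound to matrix, was at 97.9 to 109 CPM in F3 controls and 99.6 to 118 in F3 sGC, with 5 of 6 above all controls, a log2 fold change of 0.11 ± 0.041 (adjusted p = 0.126), and in F2 the value was 0.07 ± 0.029 (adjusted p = 0.711). Timp2 and TIMP4 had no unadjusted p below 0.05. TIMP1, TIMP3 and TIMP4 each lie within an intron of a synapsin gene on the opposite strand, and the library kit kept no strand, so reads of a TIMP and of unspliced synapsin RNA cannot be told apart.

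The sGC effects were also compared between generations directly, in the fit over all 36 libraries. No member was called by edgeR in any of the 3 contrasts, where 0.290% of all genes were called for F2 against F1, 0% for F3 against F1 and 0% for F3 against F2. At an unadjusted p below 0.05 there were 8, 13 and 5 members, against 16.8%, 13.1% and 9.08% of all genes. ITGB8 came nearest: its effect was lower in F2 than in F1 by 0.30 ± 0.074 on the log2 scale (difference F2 minus F1, adjusted p = 0.0502), and it was called by the likelihood ratio test and DESeq2, with no filter on low counts, and in 8 of the fits that left out a single library. For F3 against F1 and F3 against F2 the likelihood ratio test and DESeq2 called 0. The F3 minus F1 differences were 0.75 ± 0.257 for LAMA2, 0.52 ± 0.182 for NID1 and 0.64 ± 0.236 for NID2 (adjusted p = 0.213, 0.226 and 0.250). Without libraries 32 to 36, NID1 was called at a difference of 0.70 (adjusted p = 0.0194), together with ADAMTSL5 at 0.31 (adjusted p = 0.0376). In that fit 431 genes (3.78%) were called for F3 against F1 over all genes, against 0 with all libraries. When only F3 sGC replicate 5 was left out, no member was called in any of the 3 contrasts. These contrasts share control animals with the comparisons above.

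The members' own levels differed more between generations than between treatments. Among control animals, 23 of 75 members differed across F1, F2 and F3, where 42.4% of all genes did, so the share of members was below that of all genes. Of these, 15 were highest in F2 and 8 in F1, and 10 were lowest in F1, 8 in F2 and 5 in F3. By a 2-fold threshold, 5 members and 441 of 11390 genes (3.87%) differed between F2 and F1 controls, against 0 members and 2 genes between F3 and F1 controls. The counts of each generation stand in a table of their own, so generation, animal cohort and table cannot be told apart, and the cause was not tested. Without F3 sGC replicate 5, which enters through the shared spread alone, 21 members were called, and 41.4% of all genes.

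ITGA2B, the platelet fibrinogen receptor subunit, was at 5.19 to 8.24 CPM in F1 controls, 43.8 to 49.5 in F2 and 5.27 to 7.18 in F3. ITGB7, a beta subunit of lymphocytes that pairs with ITGA4 or ITGAE, went the other way, at 48.4 to 60.7 CPM in F1, 8.25 to 10.2 in F2 and 51.8 to 55.5 in F3. ITGA10 followed it, at 25.2 to 29.6, 2.98 to 3.63 and 24.5 to 28.1 CPM. For these 3 genes the F2 range lay wholly apart from those of F1 and F3, and the means differed by 7.67-fold, 5.62-fold and 8.32-fold. In F2 sGC animals ITGB7 was at 8.14 to 9.98 CPM and ITGA2B at 45.7 to 52.5. The partners of ITGB7 were not among the 23: ITGAE was at medians of 16.2, 17.4 and 16.8 CPM and ITGA4 at 10.03, 11.8 and 11.7 in F1, F2 and F3 controls.

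Timp2, an inhibitor that also helps to activate MMP2, was at 989 to 1093 CPM in F1 controls, 1875 to 2155 in F2 and 1026 to 1127 in F3, a 1.96-fold range of the means. ADAMTS19 (means of 1.78, 4.58 and 1.91 CPM), ITGA2 (2.96, 7.59 and 3.18) and MMP9 (1.02, 2.09 and 1.01) were also highest in F2. These members held the same shape, F2 apart and F1 near F3. MMP16 (51.9, 64.3 and 52.7 CPM), ITGB8 (126, 154 and 136) and TNR (201, 242 and 186.7) differed by 1.22-fold to 1.30-fold, F2 being highest in each. The F2 range of MMP16 lay apart from the others, and those of ITGB8 and TNR overlapped with F3. Because of these shifts, the sGC effects were taken within a generation or as differences of such effects.

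**Figure D3:**
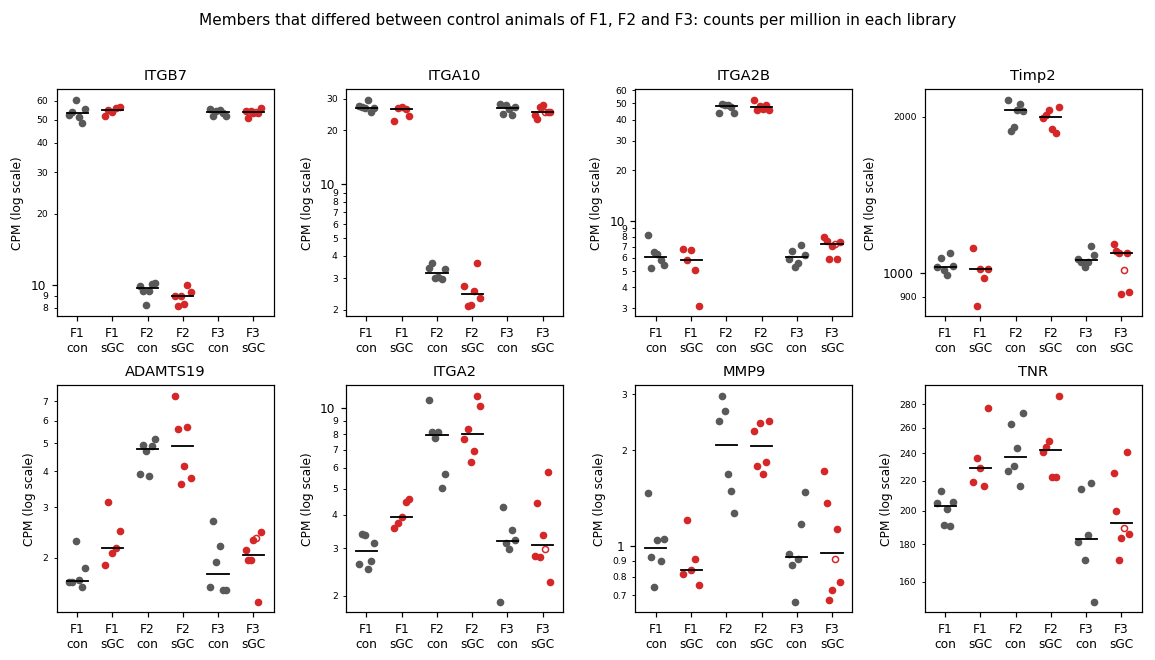
CPM (log scale) in each library for 8 members called across control animals of F1, F2 and F3. Grey points are control, red points sGC, the open point F3 sGC replicate 5, and bars medians without it. ITGB7 and ITGA10 are low and ITGA2B and Timp2 high in F2, in both control and sGC animals.

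The genes that act beside the members were counted in lists that hold no member. Over all genes 5.04% were called in F3, and 5.07% higher and 3.46% lower in the mean effect. Whether any list held more calls than that was not tested. Among 29 adhesion adaptors and kinases that join integrins to the cytoskeleton, PTK2B, a focal adhesion kinase of neurons, was called in F3 at -0.17 ± 0.039 (adjusted p = 0.0166), and KANK2 and TNS1 were called higher in the mean effect (0.15 and 0.13). Among 19 genes of the dystroglycan complex, the other laminin receptor, DTNA (0.15 ± 0.041) was called higher in F3, and DTNA and UTRN in the mean effect (0.14 and 0.15). DTNA encodes a protein of the complex that holds AQP4 at astrocyte endfeet. Of the hyaluronan and lectican genes, HAS1 was called lower in F3 (-0.10) and HAPLN4, a link protein of perineuronal nets, lower in the mean effect (-0.15). Of the other matrix glycoproteins, SPARC (0.23 ± 0.050, adjusted p = 0.0160) and LTBP1 (0.21 ± 0.055), which holds latent TGF-beta in the matrix, were called higher in F3, and SPARC, SPARCL1 and SMOC2 in the mean effect, SMOC2 being lower (-0.25). Of the other proteases, CTSB was called lower in F3 (-0.12) and in the mean effect (-0.07). In F1, edgeR called no gene of these 5 lists, where 1, 3, 4, 4 and 3 genes had an unadjusted p below 0.05, and in F2 none, where 2, 1, 0, 1 and 0 had. Without F3 sGC replicate 5, PTK2B and SPARC were still called in F3 (adjusted p = 0.0372 and 0.0334), and DTNA, LTBP1, CTSB and HAS1 were not (0.0825, 0.0698, 0.0981 and 0.107). In the mean effect KANK2 and HAPLN4 then missed the threshold (0.0554 and 0.0531), and TNS1, DTNA, UTRN, SPARC, SPARCL1, SMOC2 and CTSB were still called.

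Markers of other cells moved with treatment beside these results. Among 11 markers of meningeal fibroblasts, cells that make much basement membrane and sit on the hippocampal surface, 11 of 11 were lower in F1 sGC animals, DCN (-0.995 ± 0.239, adjusted p = 0.0494) and LUM (-0.50 ± 0.1004, adjusted p = 0.0258) being called. Their summed level was 123 to 310 CPM in F1 controls and 78.8 to 138 in F1 sGC, 140 to 186 and 114 to 217 in F2, and 118 to 178 and 118 to 209 in F3. None of the 11 was at 0 in any library, the lowest value being 0.109 CPM for SLC47A1. Oligodendrocyte markers were lower in F1 as well, 7 of 7, none called by edgeR and 2 at an unadjusted p below 0.05 (MAG at -0.32 and MOG at -0.29), with sums of 1761 to 2461 CPM in controls and 1587 to 2306 in sGC. In the same animals 7 members were lower at an unadjusted p below 0.05: LAMA2, NID2, MMP2, TIMP1, MMP17, ADAMTS2 and ITGA3. At that level 10 members were higher, the laminin chains LAMA5 (0.23) and LAMA4 (0.18) among them. The part of these cells in the values of members in either direction was not tested.

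Astrocyte markers moved the other way. All 7 were higher in F1, 5 at an unadjusted p below 0.05, and 6 of 7 in F2, 3 at that level, none called by edgeR in either. All 7 were higher in F3, with SLC1A2 and GLUL called, and all 7 in the mean effect, with AQP4, GFAP, SLC1A2, ALDH1L1 and GJA1 called. Their summed level was 7990 to 10507 CPM in F1 controls and 9225 to 15021 in F1 sGC, 9743 to 11280 and 9830 to 11748 in F2, and 8791 to 9675 and 9805 to 11498 in F3, where the groups did not overlap. In F3, 10 of 10 microglial markers were higher as well, none called by edgeR and 2 at an unadjusted p below 0.05. In F1, 8 of 10 were higher, 3 at an unadjusted p below 0.05 and none called, and in F2 5 of 9 were higher. Summed over the 9 tested in common, F3 levels were 247 to 333 CPM in controls and 291 to 343 in sGC. When F3 sGC replicate 5 was left out, SLC1A2 was still called in F3 and GLUL was not (adjusted p = 0.0370 and 0.0891), and the 5 calls in the mean effect were kept. The part of these cells in the values of ITGAV, ITGA6, ITGB5 and ITGB8 was not tested.

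Most vessel markers were higher in F3 too, where 51.7% of all genes were higher. In F1, 8 of 11 endothelial markers were also higher, 1 at an unadjusted p below 0.05, and 4 of 9 mural markers. In F2 the numbers were 5 of 11 and 3 of 9. None of either list was called by edgeR in F1 or F2. Of 9 markers of mural cells, 9 were higher in F3 sGC animals, 3 at an unadjusted p below 0.05, and PDGFRB, the PDGF receptor of pericytes, was called at 0.20 ± 0.053 (adjusted p = 0.0395, or 0.0734 without replicate 5). Their sums were 272 to 369 CPM in F3 controls and 333 to 378 in sGC. Of 11 endothelial markers, 9 were higher, 2 at an unadjusted p below 0.05 and none called by edgeR, with sums of 410 to 443 CPM in controls and 412 to 482 in sGC. Of the 11 meningeal fibroblast markers, 9 were also higher in F3, 2 at an unadjusted p below 0.05 and none called by edgeR. In F3, 13 members were higher at an unadjusted p below 0.05, LAMA5, LAMB2 and NID1 among them. Another 3 were lower, LAMB1 (-0.12), ITGA4 and ADAMTS8, and LAMA4, a chain of endothelial laminin, was at -0.05. The part of these cells in the values of members in either direction was not tested.

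Within groups, members varied with these marker sums from animal to animal. Each member was correlated with the sum of each of 5 marker lists over 35 libraries, all but F3 sGC replicate 5, after centring on the group mean (log2), 375 relations in all with permutation p-values adjusted over them. The permutations moved values freely over the 35 libraries and did not allow for the group means already removed. The permutation p-values are therefore too small. Relations close to the threshold may not hold, and the counts of correlated members given below may be too high. The libraries share tissue, dissection and depth between the measures. ADAMTS4, an aggrecan-cutting enzyme known from oligodendrocytes, followed the oligodendrocyte sum most closely, with Pearson r = 0.882 and Spearman rho = 0.820 (permutation adjusted p = 0.000469 and 0.00125). Without the 2 farthest libraries r was 0.875, and within F1, F2 and F3 it was 0.897, 0.873 and 0.938.

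With the meningeal sum, 17 of 75 members were correlated at an adjusted permutation p below 0.05, all positively. The correlations were run for members alone, so no share over all genes can be set beside this count or those below. NID2 had r = 0.727 and rho = 0.753 (adjusted permutation p = 0.000469 and 0.00125), 0.681 without the 2 farthest libraries, and 0.740, 0.721 and 0.737 within F1, F2 and F3. MMP2 had r = 0.660 and rho = 0.690 (adjusted permutation p = 0.00075 and 0.00187), 0.568 without the 2 farthest, and 0.697, 0.843 and 0.584 within generations. ADAMTS15 (r = 0.634), ITGA1 (0.626) and NID1 (0.609) followed. ITGA1 was weak in F3 alone, at 0.139. LAMA2 had r = -0.06 with the meningeal sum and r = 0.5999 with the oligodendrocyte sum (rho = 0.579, adjusted permutation p = 0.00187 and 0.00857), 0.527 without the 2 farthest libraries.

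With the astrocyte sum, 20 members were correlated, 14 of them positively. ITGAV had r = 0.699 and rho = 0.556 (adjusted permutation p = 0.000469 and 0.0126) and ITGA6 r = 0.680 and rho = 0.637 (0.00075 and 0.0025). Without the 2 farthest libraries these r values were 0.541 and 0.597, and within F1, F2 and F3 they were 0.778, 0.748 and 0.394 for ITGAV and 0.759, 0.924 and 0.553 for ITGA6. ITGB8 had r = 0.465 and rho = 0.475 (adjusted permutation p = 0.0299 and 0.0387), 0.437 without the 2 farthest, and 0.795, 0.476 and 0.476 within generations. These p-values for ITGB8 lay close to the threshold and are too small for the reason given above, so whether it passes is uncertain. The relation of ITGB5 (r = 0.659, rho = 0.307, adjusted permutation p = 0.00319 and 0.212) rested on 2 libraries, r being 0.342 without them and -0.10 and -0.16 within F2 and F3. F1 sGC replicate 4 had the highest astrocyte sum. With the endothelial sum, 17 members were correlated, led by ITGA1 (r = 0.763, rho = 0.699) and FN1 (r = 0.740, rho = 0.628), and with the microglial sum 16, led by TIMP3 (r = 0.710, rho = 0.625).

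**Figure D4:**
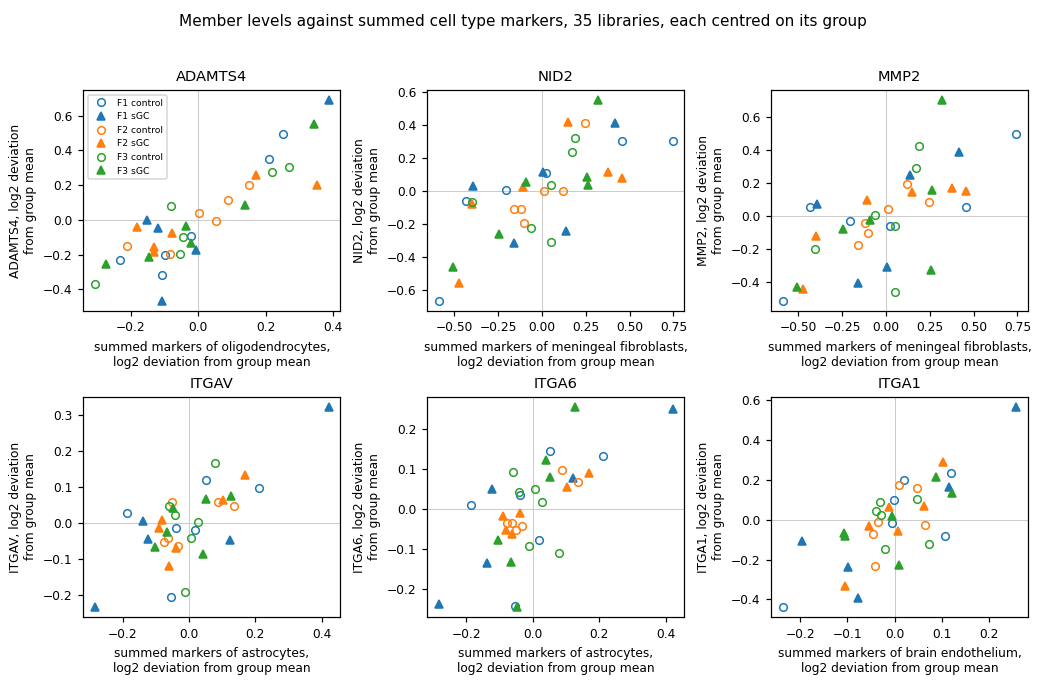
Log2 deviation of a member from its group mean (vertical) against that of a summed marker list (horizontal), 1 point per library, 35 libraries. ADAMTS4 follows the oligodendrocyte sum (r = 0.882), NID2 and MMP2 the meningeal sum (r = 0.727 and 0.660), ITGAV and ITGA6 the astrocyte sum (r = 0.699 and 0.680) and ITGA1 the endothelial sum (r = 0.763). The filled blue triangle at the far right of the ITGAV, ITGA6 and ITGA1 panels is F1 sGC replicate 4.

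Members also differed in how much they varied between animals of a group. The biological coefficient of variation, the spread left after counting error, had a median of 0.102 over the 75 members, against 0.060 over all genes, and 60 of 75 were above that all-gene median. Members had a lower median level (16.3 CPM against 36.9), which bears on this comparison. ITGB6 (0.304), LAMA3 (0.283) and LAMA2 (0.213) were among the members that varied most, the first 2 at under 5 CPM and LAMA2 at a mean of 38.3. ITGB1 (0.036), ITGA9 (0.039) and ITGB1BP1 (0.040) varied least. By family the median was highest for the nidogens and perlecan, at 0.171, and lowest for ITGB1BP1 and ITGBL1, at 0.045.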

How the data were processed

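RNA counts of 36 libraries were analysed, 1 table per generation. The authors made the counts from poly(A)-selected, unstranded libraries and deposited raw counts per gene; the submitters' processing notes name TopHat2 and edgeR, and the genome build and annotation behind the counts are not given in the sources used here. Replicates were not pooled, except that 1 library matched an average of others, as described above. The 3 tables also hold columns of the authors' own comparisons (fold change, mean level, test statistic, p-value and false discovery rate), and the DNA methylation tables hold only such comparisons; none of these was used.

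Genes passing edgeR's filterByExpr were tested per generation with the quasi-likelihood test (edgeR 4.0.16, limma 3.58.1, R 4.3.3) after TMM scaling, with Benjamini-Hochberg adjustment over all genes tested and a threshold of 0.05. A single fit over the 36 libraries and the 11390 genes tested in common gave the differences between generations, the mean effect and the control comparison; p-values measure the spread between animals, each from its own mother. Alternatives were the likelihood ratio test used in the study, DESeq2 1.42.0, RLE size factors, no filter, a CPM filter, a replicate block, 1 fit for all generations, and fits without libraries 32 to 36 or without each library. CPM values used TMM factors over all libraries, and correlations a pseudocount of 0.1 CPM and 100000 permutations. Figures were drawn with matplotlib 3.10.9.

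Named were the members with an unadjusted p below 0.05 in a generation (at most 24, and the 12 smallest where fewer than 12), up to 10 called members in each other comparison, and the most abundant member of each family. Some members outside this rule are named as neighbours of a result or for their variation, and were chosen after their values were seen (ITGAE, LAMA1, LAMA3, LAMC3, FN1, ITGB1, ADAMTS4, ADAMTS15, ITGA1, TIMP4, ITGB6, ITGA9, ITGB1BP1). ITGBL1, ADAMTS13 and ADAMTS16 are named to describe the set and its filter. The members and the lists of pathway and marker genes were chosen with earlier results of these data known. Of the 77 symbols, 75 matched RefSeq (assembly mCavPor4.1). On simulated data with known changes of 0.3 on the log2 scale, the quasi-likelihood test recovered 51.5% of changed genes in F1 (11349 genes), 63.2% in F2 (11382), 69.1% in F3 (11339) and 83.8% for the mean effect (11371). The changed genes were drawn from all genes, while members varied more and had lower levels, and recovery among members was not measured. The simulated spread in F3 and the mean effect also came from libraries that include F3 sGC replicate 5. Results of some genes are not reported here.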

Additional observations from a re-analysis of the deposited data

Results flagged for a closer look

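Each of 43 named members was examined in each group of 5 or 6 animals, F3 sGC replicate 5 left out, for an animal whose gap to its nearest neighbour was a large part of the group's range (Dixon's test). Of 256 groups, 20 passed, where chance passes about 1 in 20. F1 control replicate 3 accounted for 4 of them: it was highest for ADAMTS19 (gap over range 0.644) and lowest for HSPG2 (0.692), LAMA5 (0.728) and LAMC1 (0.642), so that the F1 controls of LAMA5 ran from 15.99 CPM in that animal. In F1 sGC, replicate 1 was lowest for MMP16 (0.745), replicate 3 highest for ADAMTS8 (0.839) and replicate 5 lowest for ADAMTS14 (0.722).

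In F2 controls, replicate 1 was lowest for ITGB2 (0.690), replicate 4 highest for NID2 (0.720), replicate 5 lowest for LAMA2 (0.753) and replicate 6 highest for TIMP3 (0.793). In F2 sGC animals, replicate 5 was highest for ITGA3 (0.674) and lowest for TIMP3 (0.689), and replicate 6 was lowest for ADAMTS14 (0.642). F3 control replicate 1 was lowest for both ADAMTS10 (0.668) and NID1 (0.675). In F3 sGC, replicate 3 was highest for ADAMTSL5 (0.629), replicate 4 lowest for LAMB2 (0.698), replicate 6 highest for LAMC1 (0.738) and replicate 7 highest for MMP28 (0.673).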

How the results depend on the processing

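ITGB8 in F1 was called in 19 of 19 alternatives, and F2 had 0 called members in every alternative. The number of called members moved elsewhere, and causes were not tested. In F1 it was 4 by the likelihood ratio test, 3 by DESeq2 and 5 in 1 fit over all generations (ITGB8, LAMA2, MMP16, ITGAV and ITGA6), and 1 to 2 when a library was left out. In F3 it was 3 by the likelihood ratio test, 2 by DESeq2, 0 without libraries 32 to 36, 0 in 1 fit, and 0 to 2 when a library was left out (0 without control replicates 2 and 4 or sGC replicates 2, 3 and 5). For F2 against F1 it was 1 by the likelihood ratio test, DESeq2 and no filter, and 0 to 2 with a library left out. For F3 against F1 it was 2 without libraries 32 to 36 and 0 to 2 with a library left out (2 without F1 sGC replicate 4). The mean effect had 0 without libraries 32 to 36 and 4 to 8 with a library left out, and the control comparison 19 to 26. Over all genes, calls in F1 were 598 by the likelihood ratio test, 658 by DESeq2, 852 in 1 fit, 97 without libraries 32 to 36 and 68 with the replicate block, against 237. In F2 the first 2 tests called 6 and 10 genes, against 0. In F3 the likelihood ratio test called 788, DESeq2 937, 1 fit 334 and the fit without libraries 32 to 36 317, against 573. For F2 against F1 the calls were 168, 202, 66 and 68 by the likelihood ratio test, DESeq2, no filter and without libraries 32 to 36, against 33, and for F3 against F1 58, 62 and 431 by the first, second and last of these, against 0. Without libraries 32 to 36 the members' median log2 fold change turned from 0.04 to -0.00593 in F1 and from -0.03 to 0.0280 for F2 against F1. Over single genes and alternatives, 1938 values kept direction and side of the threshold, 39 lost the call, 20 gained it and 28 moved.

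With the replicate block, 1 member was called in F1 (0.598% of all genes, against 2.08%), 0 in F2 (0%) and 0 in F3 (1.51%, against 5.04%). For F2 against F1, F3 against F1 and F3 against F2 no member was called (0.0351%, 0% and 0% of all genes). In the mean effect 7 members were called, and 856 genes over all genes, against 971 without the block. Same-numbered animals for the most part did not deviate together. Their correlations were -0.072 to 0.295 in F1, -0.367 to 0.192 in F2 and -0.287 to 0.020 in F3. In F1, F2 and F3, 1, 0 and 0 pairs correlated best with their own number. The labels do not say whether such animals were handled together, and these correlations cannot decide it. The block could not be fitted for controls across generations, where it is nested in generation. At this depth, ADAMTS16, ADAMTS13 and ITGB6 had too few reads for a test in some or all generations.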
